A study of Mus musculus with 6 samples.

Results

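The 8 genes described here are genes of Schwann cells and of the myelin they make: Sox10, Cdh19, Mbp, Pmp22, S100b, Kcna1, Prx and Cnp. They were taken by name as markers of a further cell type of muscle that may enter a sort of muscle stem cells (MuSCs). The rule uses no measured value, but the list was drawn up with earlier results of these data known. All 8 were among the 31053 genes of the count table and among the 11633 that passed the expression minimum. RNA-seq was performed on quiescent MuSCs (qMuSCs) sorted by GFP from resting hindlimb muscle of mice aged 3 to 4 months, with a library for each mouse. WT mice (c124, c129 and c130) were Pax7nGFP/+, Pax7+/+ and Dio2Fl/Fl, and cD2KO mice (fl125, fl126 and fl128) were Pax7nGFP/+, Pax7-CreERT2/+ and Dio2Fl/Fl. All 6 mice thus carried the Pax7 nuclear GFP reporter and floxed Dio2, the gene of type 2 deiodinase (D2), and all received tamoxifen. CreERT2, a recombinase that tamoxifen activates, is driven in Pax7-expressing cells and was carried by the cD2KO mice alone, so that the Cre allele and the loss of D2 cannot be told apart.

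Schwann cells are the glia of peripheral nerve, and motor, sensory and autonomic nerve branches run through every skeletal muscle. Myelinating Schwann cells wrap the axon in compacted membrane, while nonmyelinating (Remak) Schwann cells hold small axons in pockets, and terminal Schwann cells cap the neuromuscular junction. Sox10 is the transcription factor that all of these cells require, and together with Egr2 it turns on the myelin genes. None of the 8 genes is the target of the knockout, and the recombinase acts in cells that express Pax7.

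Total counts ranged from 2184073 to 3897787 per mouse. CPM are read counts scaled to the TMM-adjusted size of each library. Dio2 had from 1 to 21 counts, below the expression minimum, at 5.38, 1.85 and 3.46 CPM in c124, c129 and c130 and at 6.79, 1.71 and 0.314 CPM in the libraries labelled fl125, fl126 and fl128 (p = 0.7 by exact two-sided permutation). The highest CPM of the 6 was thus in the library labelled fl125, a knockout by its label, with 15 counts beside 21 in c124. So few counts cannot decide whether Dio2 was lost in that library. The same library stood apart in its immune markers, as given further on. Leaving it out changed the calls of Cnp, Egr2, Gjb1 and Foxd3 at an unadjusted p under 0.05, given below. Without it Cdh19 and Erbb3, called either way, also passed an adjusted p under 0.05 in edgeR. Over all genes tested, 1800 were then called, against 1391 with all 6 mice, and 303 passed the adjustment, against 1. All 12 muscle stem cell markers passed the expression minimum, and Pax7 ranged from 211.5 to 431 CPM in the WT mice and from 314 to 687 CPM in the cD2KO mice.

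The sorted cells held RNA of Schwann cell and myelin genes in large amount in both groups, and 7 of the 8 members overlapped between WT and cD2KO. Together the 8 genes took 0.415%, 0.297% and 0.367% of the counts of c124, c129 and c130 and 0.378%, 0.393% and 0.395% of those of fl125, fl126 and fl128 (two-sided exact permutation test, p = 0.6, where 3 mice against 3 allow no p below 0.1). The sums behind these shares were 7729 to 16184 counts. Cdh19 alone separated the groups and was lower in cD2KO. In sorted bulk RNA, fewer cells of a type and less RNA of a gene per cell cannot be told apart.

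Levels of different genes were compared per length, as CPM per kb of annotated exon. Whether the reads cover whole transcripts is not given in the sources used here, and a protocol that counts transcript ends would make this scale inexact. On it Pmp22 was the highest member at a mean of 514 CPM per kb over the 6 mice and ranked 85 among the 11633 genes tested. S100b followed at 229, Cnp at 137, Mbp at 127, Sox10 at 73.4, Prx at 42.3, Kcna1 at 29.7 and Cdh19 at 6.997 CPM per kb. The ranges over mice overlapped between Cnp (95.5 to 184) and Mbp (88.6 to 147), and not between Pmp22 (380.3 to 609.9) and S100b (158 to 273), between Mbp and Sox10 (59.4 to 85.2), between Sox10 and Prx (37.7 to 52.4), between Prx and Kcna1 (22.2 to 37.1), or between Kcna1 and Cdh19 (3.60 to 10.5). The ranges of S100b and Cnp overlapped as well. The order depends on the scale. In CPM, without length, the mean of Mbp was 958 in WT and 1188 in cD2KO. That lay above Cnp (448 and 551) and S100b (301 and 377). For scale, Pax7, the gene that drives the sorted reporter, was at 71.2 CPM per kb with a range of 36.1 to 117 that took in the whole range of Sox10.

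**Figure D1:**
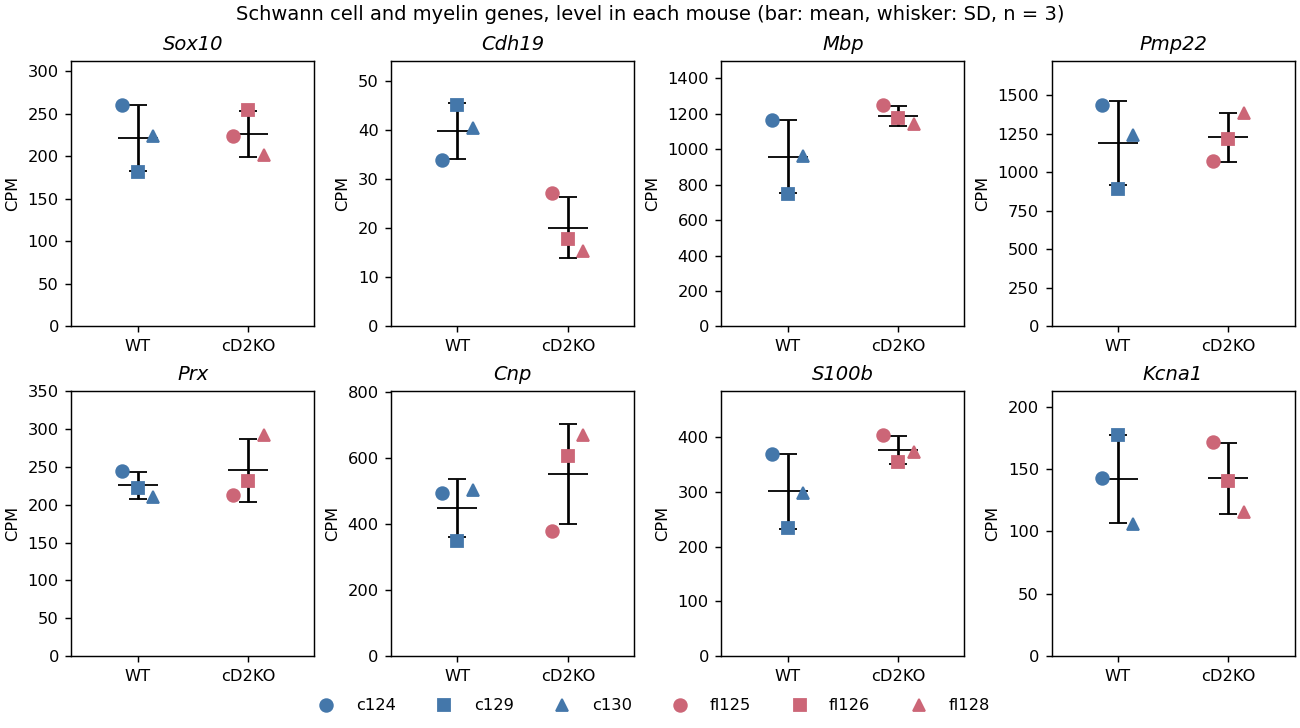
Level of each of the 8 genes (CPM, y axis from 0) in WT and cD2KO mice. Points are mice, the bar is the mean and the whisker the SD of 3 mice. Cdh19 is the one gene whose cD2KO mice (15.4 to 27.2 CPM) all lie below the WT mice (33.8 to 45.0 CPM).

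Sox10 (ENSMUSG00000033006) maps to chromosome 15 of the mm10 build (79154908 to 79165240, minus strand) and encodes the transcription factor that sets and keeps Schwann cell identity. It was at 259.9, 181 and 223 CPM in c124, c129 and c130 and at 224, 255 and 201 CPM in fl125, fl126 and fl128. The highest and the lowest level were both in WT mice. Its log2 fold change, cD2KO minus WT, was 0.03 with a 95% interval of -0.40 to 0.47 (edgeR, adjusted p = 0.969), an interval that still holds changes of either sign.

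Cdh19 (ENSMUSG00000047216, minus strand of chromosome 1 from 110888326 to 110977584) encodes a cadherin of the Schwann cell lineage, found from the precursors onward and used as a marker of nonmyelinating cells. It was at 33.8, 45.0 and 40.5 CPM in WT mice c124, c129 and c130 and at 27.2, 17.8 and 15.4 CPM in cD2KO mice fl125, fl126 and fl128. All cD2KO mice lay below all WT mice. The means were 39.8 ± 5.65 and 20.1 ± 6.23 CPM (SD, n = 3 mice each), a ratio of 0.506. The log2 fold change was -0.99 (standard error 0.29, 95% interval -1.62 to -0.36), and edgeR gave an unadjusted p of 0.00445 and an adjusted p of 0.167. Cdh19 was thus called at an unadjusted p under 0.05, the rule for calls used throughout, and did not pass the adjustment over all genes with all 6 mice. It had 49 to 132 counts per mouse, the fewest of the 8 genes. Leaving out any of the 6 mice kept the unadjusted p under 0.05, with log2 fold changes from -1.22 to -0.83. Without the library labelled fl125, the one with the highest CPM of Dio2, it passed an adjusted p under 0.05 in edgeR as well. In that setting 303 of all genes tested passed it, against 1 with all 6 mice.

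By this rule 1 of the 8 members was lower and 0 were higher in cD2KO, against 6.62% of all genes tested that were lower, 5.34% that were higher and 12.0% in either direction. Without fl125 the count of higher members was 1, which was Cnp. The groups did not overlap in 1 of 8 members, against 18.1% of all genes tested. Both shares are close to those among all genes. At an adjusted p under 0.05 the count was 0 of 8 members in edgeR, 0 in DESeq2 and 0 in limma voom, beside 1 at an unadjusted p under 0.05. The median log2 fold change of the members was 0.08 beside -0.02 over all genes tested, and 7 of the 8 values were above 0.

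Among the structural and membrane proteins of myelin, Mbp and Pmp22 were the most abundant in counts. Mbp (ENSMUSG00000041607, plus strand of chromosome 18 from 82475146 to 82585637) encodes myelin basic protein, which holds the inner faces of the membrane layers together, and its gene also makes golli transcripts in immune cells. It was at 1165, 750.1 and 960.1 CPM in c124, c129 and c130 and at 1249, 1175 and 1140.3 CPM in fl125, fl126 and fl128. The WT mouse c124 lay above the lowest cD2KO mouse, so the groups overlapped. The WT mice spread more widely (958 ± 207 CPM, SD, n = 3) than the cD2KO mice (1188 ± 55.3 CPM, SD, n = 3). The log2 fold change was 0.31 with a 95% interval of -0.14 to 0.76 (edgeR, adjusted p = 0.610).

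Pmp22 (ENSMUSG00000018217, plus strand of chromosome 11 from 63128982 to 63159547) encodes a tetraspan protein of compact myelin whose duplication causes Charcot-Marie-Tooth neuropathy, and it is also made by fibroblasts that have stopped growing. It was at 1436, 895 and 1243 CPM in c124, c129 and c130 and at 1076, 1217 and 1388 CPM in fl125, fl126 and fl128. Both the highest and the lowest mouse were WT. The log2 fold change was 0.04 with a 95% interval of -0.43 to 0.52 (edgeR, adjusted p = 0.964).

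Prx (ENSMUSG00000053198, plus strand of chromosome 7 from 27499324 to 27520214) encodes periaxin, a scaffold that ties the Schwann cell membrane to the basal lamina through dystroglycan and Drp2. It was at 245, 223 and 210.1 CPM in c124, c129 and c130 and at 213, 232 and 292 CPM in fl125, fl126 and fl128. The groups overlapped, and fl128 was the highest. For Prx the log2 fold change was 0.12, with a 95% interval of -0.30 to 0.54 and an edgeR adjusted p of 0.872. Drp2, its partner, had a log2 fold change of 0.31 (95% interval -0.18 to 0.80).

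Cnp (ENSMUSG00000006782, plus strand of chromosome 11 from 100574904 to 100591729) encodes the cyclic nucleotide phosphodiesterase of noncompact myelin. It was at 493, 347 and 503 CPM in c124, c129 and c130 and at 379, 605 and 669 CPM in fl125, fl126 and fl128. The cD2KO mice fl126 and fl128 lay above every WT mouse, and the overlap rested on fl125. For Cnp the log2 fold change was 0.30 with a 95% interval of -0.22 to 0.82 (edgeR, adjusted p = 0.690). Without fl125 it was 0.55 at an unadjusted p of 0.0198 in edgeR's test. Exons of Cnp overlap exons of Dnajc7 on the other strand, and exons of Prx overlap the antisense gene Gm15541, so the counts of Cnp and Prx are uncertain where strand was not used.

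S100b (ENSMUSG00000033208, plus strand of chromosome 10 from 76253853 to 76261159) encodes a calcium-binding protein that is widely used to stain Schwann cells. It was at 370.0, 234 and 299 CPM in c124, c129 and c130 and at 404, 355 and 372 CPM in fl125, fl126 and fl128. The WT mouse c124 lay within the range of the cD2KO mice, and the other WT mice lay below it. For S100b the log2 fold change was 0.32 with a 95% interval of -0.13 to 0.77 (edgeR, adjusted p = 0.587).

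Kcna1 (ENSMUSG00000047976, minus strand of chromosome 6 from 126640397 to 126646384) encodes a Shaker-type potassium channel of the Kv1 family, known in nerve from the juxtaparanodes, the stretches of axon beside the node under the edge of the myelin. It was at 143, 177 and 106 CPM in c124, c129 and c130 and at 172, 140.2 and 115 CPM in fl125, fl126 and fl128. The cD2KO mice lay wholly within the range of the WT mice. The log2 fold change was 0.00, with a 95% interval of -0.49 to 0.49 and an edgeR adjusted p of 0.999.

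RefSeq promoter windows on GRCm38.p6, from 250 bases before to 50 bases after a start site, were at hand for 4 of the 8 members. Sox10, Cdh19, Mbp and Kcna1 had none. Since Sox10 and Egr2 are the known regulators of myelin genes, both strands of the windows were searched for a Sox core (ACAAAG or ACAATG) and an Egr core (GTGGGNG), and the windows are shown so that a reader can see what was searched. Capitals mark a Sox core. Cnp held 1 Sox core and 1 Egr core, Prx held 1 Egr core, and S100b and the 4 windows of Pmp22 held neither. Of all 32851 promoter windows, 28.6% held a Sox core and 31.6% an Egr core. The windows below run 5′ to 3′ on the plus strand, at chr11:100574689-100574988 for Cnp, chr7:27499074-27499373 for Prx, chr10:76253586-76253885 for S100b and chr11:63128732-63129031 for the first of the Pmp22 windows.
Cnp: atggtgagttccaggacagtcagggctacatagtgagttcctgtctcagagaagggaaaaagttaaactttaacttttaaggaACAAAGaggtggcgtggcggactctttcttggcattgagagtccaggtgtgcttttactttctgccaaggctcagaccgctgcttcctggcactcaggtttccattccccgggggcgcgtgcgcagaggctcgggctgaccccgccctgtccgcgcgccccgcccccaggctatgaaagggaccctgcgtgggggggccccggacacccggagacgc
Prx: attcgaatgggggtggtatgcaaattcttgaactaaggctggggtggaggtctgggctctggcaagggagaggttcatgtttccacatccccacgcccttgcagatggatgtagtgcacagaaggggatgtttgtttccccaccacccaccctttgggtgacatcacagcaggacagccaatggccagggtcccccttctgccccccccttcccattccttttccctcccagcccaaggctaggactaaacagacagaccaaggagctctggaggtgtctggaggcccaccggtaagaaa
S100b: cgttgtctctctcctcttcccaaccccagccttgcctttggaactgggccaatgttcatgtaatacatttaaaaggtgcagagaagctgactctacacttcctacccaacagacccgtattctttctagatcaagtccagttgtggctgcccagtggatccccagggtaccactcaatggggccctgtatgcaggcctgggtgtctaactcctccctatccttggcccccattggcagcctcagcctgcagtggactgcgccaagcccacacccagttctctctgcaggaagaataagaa
Pmp22: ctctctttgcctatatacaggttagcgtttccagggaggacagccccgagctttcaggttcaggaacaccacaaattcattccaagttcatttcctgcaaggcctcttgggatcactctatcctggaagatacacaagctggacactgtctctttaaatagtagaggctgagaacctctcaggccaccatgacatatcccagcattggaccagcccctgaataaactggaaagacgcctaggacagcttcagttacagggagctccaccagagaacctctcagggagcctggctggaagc
A match is a run of letters and no evidence of binding, and a window without one says nothing of the factor.

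The members did not rise and fall together as a single block across the mice. Pearson's r of log2 CPM over the 6 mice had a median of 0.27 over the 28 pairs of members, with 15 pairs above 0, where all genes of a mouse share its library. Mbp and S100b followed each other most closely (r = 0.99, Spearman's rho 0.77), both lowest in c129 and highest in fl125. Cnp and Pmp22 followed with r = 0.80 (rho 0.60). Cdh19 ran against Cnp (r = -0.76, rho -0.77), and Kcna1 ran against Cnp as well (r = -0.77, rho -0.83). The WT mouse c129 was the lowest of the 6 mice in 5 of the 8 genes, Sox10, Mbp, Pmp22, S100b and Cnp, and the highest in Cdh19 and Kcna1. The cD2KO mouse fl125 was the highest in Mbp and S100b, and fl126 was neither the highest nor the lowest in any of the 8.

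**Figure D2:**
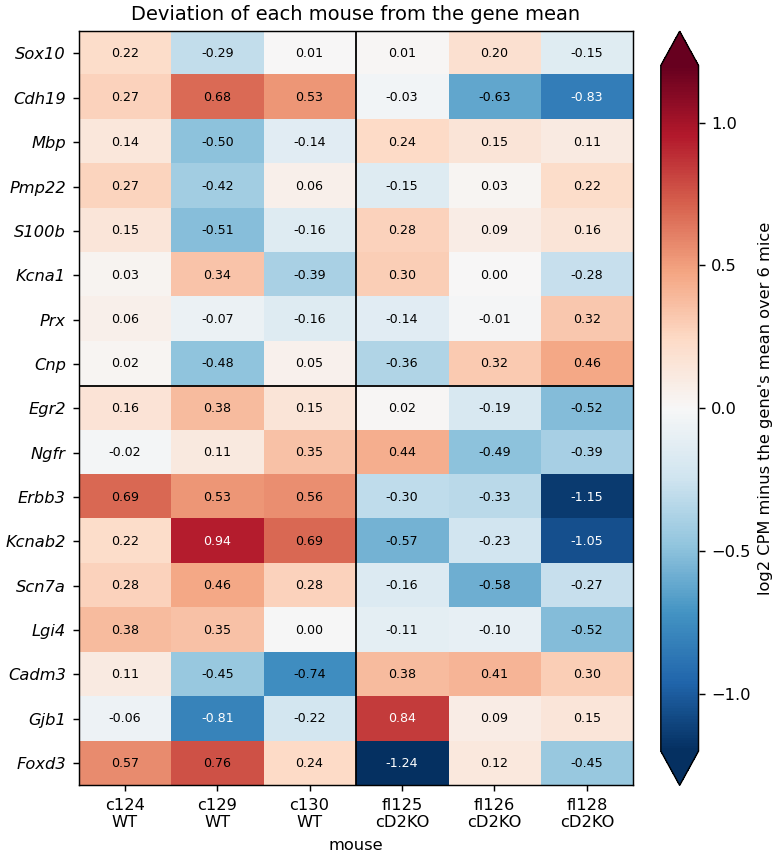
Deviation of each mouse (columns) from the mean of a gene over the 6 mice (rows), in log2 CPM. The 8 members stand above the line, and other Schwann cell and myelin genes named in the text below it. Cdh19 runs from 0.68 in c129 to -0.83 in fl128, while Mbp and S100b share a low c129 (-0.50 and -0.51).

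The same comparison was made within the members, by the share of each in their summed counts, which does not depend on how libraries are scaled. Cdh19 made up 0.816%, 1.58% and 1.13% of the sum in c124, c129 and c130 and 0.726%, 0.445% and 0.367% in fl125, fl126 and fl128. The groups did not overlap on this scale (p = 0.1 by exact permutation, two-sided, which is the lowest p that this design allows). The shares of the other 7 genes overlapped between the groups, with p from 0.2 to 0.7 in the same exact test. Sox10 was the steadiest in WT, at 6.27%, 6.35% and 6.23%, and lay at 5.99%, 6.37% and 4.79% in cD2KO. These shares are counts per gene and are not corrected for length.

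The genes whose pattern over the 6 mice was most like that of Sox10 were Sike1 (r = 0.98, rho 0.94), Smco4 (0.98, 0.94), Gng5 (0.97, 1), Scaf8 (0.96, 0.94) and Peg12 (0.96, 0.89), by Pearson's r of log2 CPM among all genes tested. For Mbp they were Sept8 (r = 0.99, rho 0.94), S100b (0.99, 0.77), Vps28 (0.99, 1), Dph6 (0.99, 1) and Myl6 (0.99, 0.83). In all, 50 genes had r above 0.9 with Sox10 and 239 with Mbp.

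Other genes of the same cells and of myelin were read from lists written by hand, 53 genes in all, of which 43 passed the expression minimum. By the same rule 6 of the 43 were called lower and 3 higher, beside 6.62% and 5.34% of all genes tested. The same 2 shares stand beside the counts of the separate lists below. After adjustment (p under 0.05) the count was 0 in edgeR, 0 in limma voom and 1 in DESeq2, which was Erbb3. In edgeR the count was 1, again Erbb3, without fl125 and also without an expression minimum. Their median log2 fold change was -0.08. The count of lower genes was 3 without c124 and 3 without fl128. Of the genes that did not pass the minimum, Tfap2a, Fabp7, Gfap, Gap43, Pmp2, Gal3st1, Lgi3, Cntnap2, Cntn2 and Cntn1, none had more than 20 counts in a mouse.

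In the list of Schwann cell identity genes, 15 of 19 passed the minimum, 4 were lower, 1 was higher and 10 were not called, with a median log2 fold change of -0.46 beside -0.02 over all genes tested. Erbb3, the neuregulin receptor that Schwann cells need to survive and to myelinate, was at 42.2, 37.7 and 38.4 CPM in c124, c129 and c130 and at 20.8, 20.5 and 11.3 CPM in fl125, fl126 and fl128. Its groups did not overlap, and the log2 fold change was -1.18 ± 0.30 (standard error), with an adjusted p of 0.123 in edgeR. Scn7a, a sodium channel of nonmyelinating Schwann cells, fell from 86.9 ± 6.56 to 54.4 ± 8.04 CPM (SD, n = 3 mice each), and its groups did not overlap (log2 fold change -0.68, edgeR adjusted p = 0.177). Lgi4, a secreted ligand that Schwann cells need for myelination, had a log2 fold change of -0.49 (edgeR adjusted p = 0.371), but lost the call without c124, c129 or fl128. The fourth lower gene was Foxd3, a neural crest transcription factor at 12.5 ± 2.38 and 6.12 ± 3.04 CPM (SD, n = 3 mice each), which was named after its values were seen. Its unadjusted p in edgeR was 0.0499, and in 8 of 12 alternatives it was not called, 5 of them leaving out c124, c129, c130, fl125 or fl128.

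Egr2, the transcription factor that drives myelination together with Sox10, averaged 55.4 ± 5.07 CPM over the WT mice and 40.4 ± 7.46 CPM over the cD2KO mice (SD). Its mice did not overlap, but its log2 fold change of -0.46 had a 95% interval of -0.96 to 0.04 and it was not called, except without fl125 or when scaled to the total count. Ngfr, the low affinity neurotrophin receptor of nonmyelinating and repair Schwann cells, had a log2 fold change of -0.26 (95% interval -0.93 to 0.41), and fl125 was the highest of the 6 mice at 35.8 CPM.

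In the list of myelin genes, 21 of 23 passed the minimum, 2 were higher, 1 was lower and 18 were not called, with a median log2 fold change of 0.23. Gjb1, the gap junction connexin of myelinating Schwann cells, and Cadm3, a nectin-like adhesion molecule, were the higher myelin genes. Gjb1 went from 22.4 ± 5.85 to 37.6 ± 11.8 CPM (SD, n = 3 mice each, log2 fold change 0.73, edgeR adjusted p = 0.377), and lost the call without c129 or fl125. Cadm3 went from 49.0 ± 15.3 to 79.0 ± 3.18 CPM (SD, n = 3 mice each, log2 fold change 0.68, edgeR adjusted p = 0.258), and lost the call without c130. Neither gene overlapped between the groups.

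Among the Kv1 channel and juxtaparanode genes, 7 of 11 passed the minimum, 0 were higher and 1 was lower. Kcnab2, a cytoplasmic beta subunit of Kv1 channels, was at 16.1, 26.9 and 22.5 CPM in c124, c129 and c130 and at 9.06, 11.6 and 6.28 CPM in fl125, fl126 and fl128. The groups did not overlap (log2 fold change -1.28, standard error 0.37, edgeR adjusted p = 0.162). Kcna2, which forms channels together with Kcna1, had a log2 fold change of -0.18 with a 95% interval of -0.62 to 0.27.

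**Figure D3:**
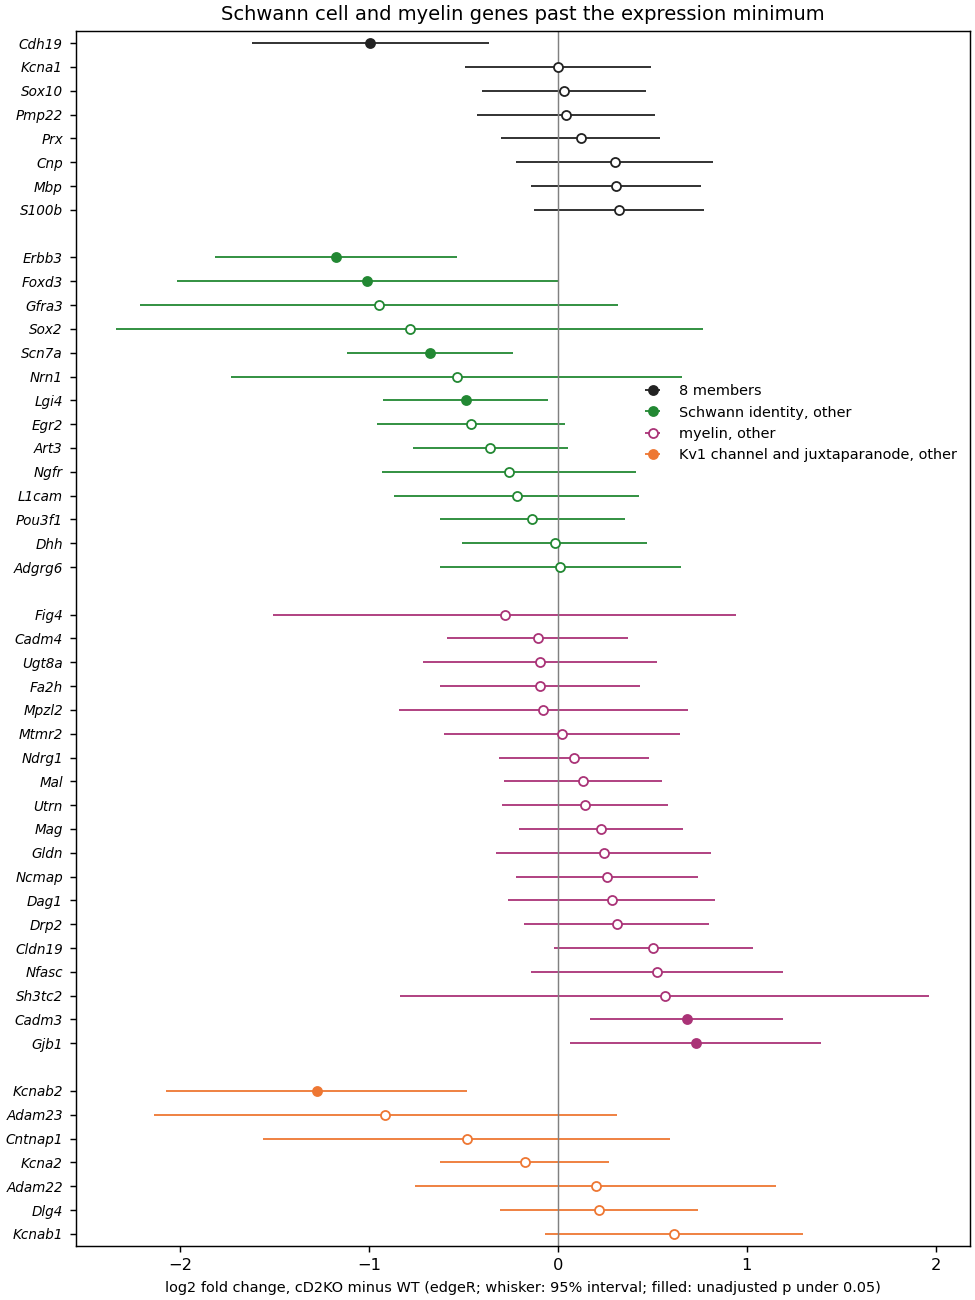
Log2 fold change, cD2KO minus WT, of the 8 members and of 40 of the 43 other Schwann cell and myelin genes past the expression minimum, with 95% intervals from edgeR. Filled points have an unadjusted p under 0.05. Of the members, Cdh19 alone is filled, and of the other genes shown 5 are filled on the lower and 2 on the higher side. The 3 genes not drawn include 1 called lower and 1 called higher.

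Markers of other cell types were summed per mouse beside the members. The 8 members summed to 2853 to 4144 CPM in WT and 3743 to 4194 CPM in cD2KO. The 12 muscle stem cell markers summed to 1048 to 1384 CPM in WT and 1336 to 1828 CPM in cD2KO. Both sums overlapped between the groups. Of the 12 stem cell markers, 3 were called higher and 0 lower, beside 5.34% and 6.62% of all genes tested. Of the other lists, those of immune and mural cells did not overlap. The 13 immune genes summed to 3630 to 6382 CPM in WT and 199 to 2083 CPM in cD2KO with Cd79a at 0, and the 9 mural genes to 5418 to 9267 CPM in WT and 11054 to 16246 CPM in cD2KO with none at 0. The summed Schwann cell identity genes, without the members, did not overlap either, at 928 to 1090.0 CPM in WT and 705 to 856 CPM in cD2KO.

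The library labelled fl125 had the lowest immune sum, 199 CPM against 1874 and 2083 CPM in fl126 and fl128, and the highest Cdh19 of the cD2KO mice. The part of the immune and mural lists in the difference of Cdh19 was not tested. The 10 neuron genes summed to 10.7 to 24.4 CPM in WT and 15.1 to 22.2 CPM in cD2KO, 9 of them below the expression minimum and none above 42 counts in a mouse. The 8 genes of perineurial glia, the sheath cells of nerve bundles, all passed the minimum and summed to 496 to 564 CPM in WT and 342 to 648 CPM in cD2KO, with fl125 the lowest. Of the 6 melanocyte genes, which mark another Sox10-expressing cell, Tyr and Mlana were at 0 in all mice, and the list summed to 25.6 to 35.1 CPM in WT mice and 17.3 to 41.7 CPM in cD2KO mice. The sums of endothelial genes (300.4 to 454 and 263 to 319 CPM, none of 14 genes at 0), fibroadipogenic progenitor genes (2477 to 4319 and 1373 to 3787 CPM, none of 8 at 0) and muscle fiber genes (1492 to 3457 and 2735 to 5135 CPM, none of 8 at 0) overlapped between WT and cD2KO. Single genes of these lists were called all the same, with 6 of 14 endothelial genes lower and 0 higher, 1 of 8 fibroadipogenic progenitor genes lower and 1 of 8 muscle fiber genes higher. Of the immune genes 4 of 13 were lower, and of the mural genes 4 of 9 were higher. In these lists 3 endothelial genes, 2 immune genes and 1 fibroadipogenic progenitor gene were below the expression minimum and so not tested. Of all genes tested, 6.62% were lower and 5.34% higher. The part of the endothelial genes in the differences of Cdh19 and of the Schwann cell identity genes was not tested.

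**Figure D4:**
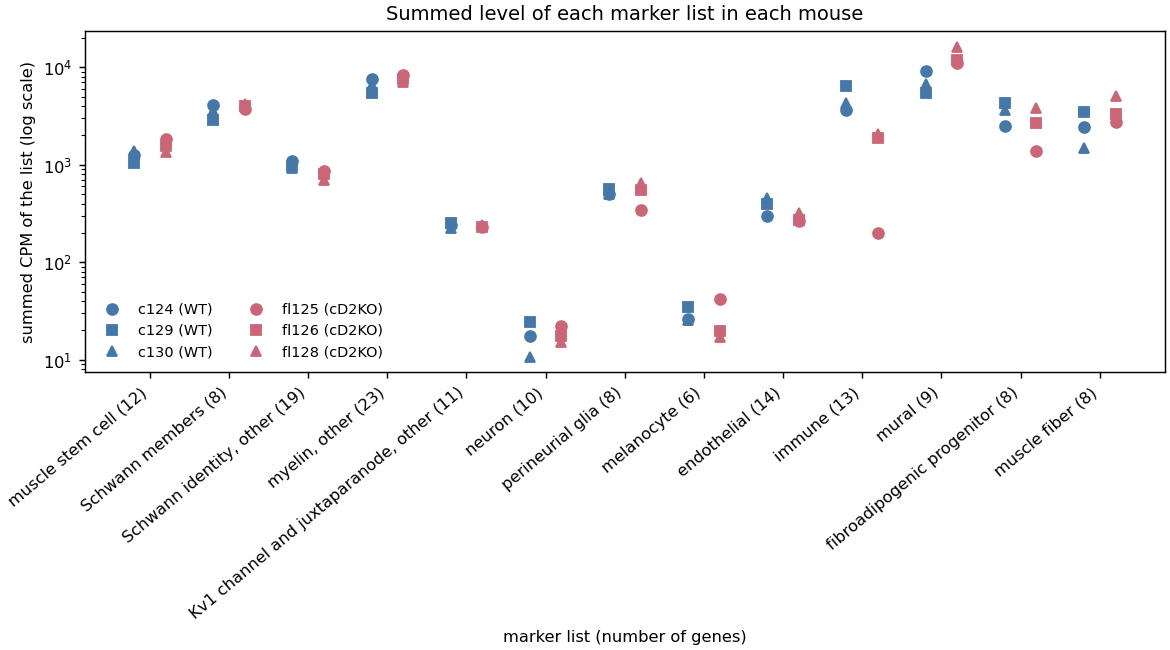
Summed CPM of each marker list (log scale) in each mouse, with the number of genes of the list in brackets. The Schwann members lie between 2853 and 4194 CPM in all 6 mice, the muscle stem cell list at 1048 to 1828 CPM, and the neuron list at or below 24.4 CPM. The sums are not corrected for exon length or number of genes, so the order of the lists does not rank cell types.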

How the data were processed

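qMuSC RNA of 3 WT and 3 cD2KO mice was sequenced, 1 library per mouse. Reads were aligned with STAR to mm10, and the values deposited by the authors are raw counts per gene. The submitters' processing notes list bcl2fastq, STAR 2.6.0a and HTSeq 0.9.1, while annotation, strandedness and treatment of duplicates are not given in the sources used here. Mice were grouped by the genotype in the labels. Symbols, positions and exon lengths came from GENCODE M21, in which 30934 of 31053 identifiers were found.

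The expression minimum was a DESeq2-normalized mean over 10, which 11633 genes passed. They were tested on all 6 mice with edgeR 4.0.16 (R 4.3.3, TMM factors, robust quasi-likelihood fit), with Benjamini-Hochberg adjustment over all 11633. Calls were made at an unadjusted p under 0.05. Log2 CPM used a prior count of 2. Intervals are the 95% intervals of that fit, and standard deviations are between mice. The tests were also run on simulated data, drawn with the same dispersion for every gene. Alternatives were DESeq2 1.42.0, limma voom 3.58.1, DESeq2 size factors, total count scaling, other filters and leaving out each mouse.

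The members and the lists were chosen with earlier results of these data known. Named genes were the 8 members, Dio2, Pax7, Egr2, Erbb3 and Ngfr, up to 5 other Schwann cell and myelin genes in each direction with the smallest unadjusted p under 0.05, and the 5 genes most like Sox10 and Mbp. Some genes that this rule takes are not reported here, though counts over the lists include them. Genes named by other criteria are partners of a member, genes at 0 or below the minimum, and Foxd3.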

Additional observations from a re-analysis of the deposited data

How the results depend on the processing

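The call of Cdh19 as lower held in all 12 alternatives (log2 fold change -1.22 to -0.83, unadjusted p 0.000822 to 0.0225), as did those of Erbb3, Kcnab2 and Scn7a. With single mice left out the count of higher members ran from 0 to 1, and that of the other Schwann cell and myelin genes called lower from 3 to 7. Without an expression minimum 5 of the other genes were higher. Total count scaling turned the log2 fold changes of Sox10, Pmp22 and Kcna1 to -0.026, -0.020 and -0.057. With single mice left out they ran from -0.069 to 0.16, -0.10 to 0.20 and -0.14 to 0.21, and that of Prx from -0.022 to 0.25, none of them called. The cause was not tested. No paired analysis was possible because the mice of the groups share no replicate number. With 3 mice a group the intervals were wide, and changes of any size within the interval of a gene could not be told apart. Over all genes the count at an unadjusted p under 0.05 was 1391, but 915 without c129 and 1800 without fl125. At an adjusted p under 0.05 the count was 1, but 276 in DESeq2, 510 without a minimum, 303 without fl125 and 7 without fl128.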
